A study of Mus musculus with 4 samples.

Results

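The FOS and JUN families were followed as 7 genes, Fos, Fosb, Fosl1, Fosl2, Jun, Junb and Jund, chosen by symbol from 18193 genes that had a probe set with 1 symbol on Affymetrix Mouse Genome 430 2.0 arrays. They were covered by 11 probe sets, with 2 each for Fosl1, Fosl2, Jun and Jund and 1 each for Fos, Fosb and Junb. RNA came from ST2 cells, an immortal fibroblast-like stromal line derived from BALB/c mouse bone marrow. All cells were cultured at 37 °C. Control cells were not treated, and the remaining cells received LIPUS (low-intensity pulsed ultrasound, applied clinically to healing fractures) at 25 mW/cm2 for 20 min and were harvested 0.5, 1 or 3 h later. All groups were grown in the same serum-containing medium, and each of the 4 groups was 1 array, so no test, p-value or replicate error could be had. The labels do not say whether control cells were mock-handled or when they were harvested, and a single cell line stands for marrow stroma here.

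FOS and JUN proteins are basic leucine zipper factors that form the dimeric transcription factor AP-1. JUN proteins can pair with one another or with FOS proteins, whereas FOS proteins need a JUN partner to bind DNA stably. Fos, Fosb, Jun and Junb are classical immediate-early genes, transcribed within minutes of serum, growth factors or stress by factors already present in the cell, and their mRNAs are short-lived. Fosl1 and Fosl2 lack the strong activation domain of FOS and usually follow later, and Jund is mostly constitutive. In stromal and bone cells, AP-1 is known for its part in osteoblast differentiation, matrix turnover and the response to mechanical load.

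The upstream sequences of Fos, Jun and Junb are given because these 3 members had the highest ratios to the control at 1 h. Each is the 250 bases before the start of transcription, 5′ to 3′ on the strand of the gene, taken from RefSeq with build GRCm38.p6. The capitals mark, on either strand, the CRE core TGACG, the related site TGACATCA, the TATA box TATAAA and the MEF2 site.
Fos (chr12:85473640-85473889, plus strand): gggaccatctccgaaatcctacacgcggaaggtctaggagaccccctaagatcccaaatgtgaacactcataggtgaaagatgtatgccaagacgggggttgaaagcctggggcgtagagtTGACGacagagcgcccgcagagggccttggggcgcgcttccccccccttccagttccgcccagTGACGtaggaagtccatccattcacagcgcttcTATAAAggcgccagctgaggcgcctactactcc
Jun (chr4:95052223-95052472, minus strand): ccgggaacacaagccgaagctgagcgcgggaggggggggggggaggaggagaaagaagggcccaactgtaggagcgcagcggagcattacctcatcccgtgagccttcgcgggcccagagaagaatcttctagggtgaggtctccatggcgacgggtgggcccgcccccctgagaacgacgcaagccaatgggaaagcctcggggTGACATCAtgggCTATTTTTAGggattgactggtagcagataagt
Junb (chr8:84978749-84978998, minus strand): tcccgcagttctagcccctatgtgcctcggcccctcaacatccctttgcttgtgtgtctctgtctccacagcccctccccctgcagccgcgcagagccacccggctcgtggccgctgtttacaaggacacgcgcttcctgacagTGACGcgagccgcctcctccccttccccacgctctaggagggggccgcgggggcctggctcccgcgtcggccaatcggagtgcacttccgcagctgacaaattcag

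Of the 7 members, 6 had an entry in the RefSeq promoter table, and Fosl1 had none. The CRE core TGACG, the first bases of the cyclic AMP response element (CRE) bound by CREB and ATF proteins, lay in the windows of 3 of the 6 members, Fos, Fosb and Junb. It was found in 17.8% of 32851 windows of the same length across the genome. Fos held it at −129 and −66 and held the TATA box at −33, where −1 is the last base before the start. TATAAA occurred in 12.4% of all windows and in no other member's. Fosb held TGACG at −60 and Junb at −106, and 73 of the 250 bases of the Fosb window lie within the gene's annotated span. Jun held TGACATCA at −45, followed by a MEF2 site at −33. The first was found in 2.93% and the second in 2.92% of all windows, and each was in the window of 1 of the 6 members. The full CRE TGACGTCA, which contains TGACG and occurred in 1.55% of all windows, was not matched in any of the 6 windows. Nor were the AP-1 site TGANTCA, in 6.75%, and the CArG box of serum response factor, in 1.47%. The letters TGANTCA cover that form of the AP-1 site only, and TGACATCA in Jun was searched as a motif of its own. CCAAT, in 33.8% of all windows, lay at −65 in Jun and at −36 in Junb. GGGCGG, in 32.7%, lay in the windows of Fos, Fosb, Fosl2 and Jun. All motifs were searched on both strands, and a match describes letters, not binding. Only these 250 bases were searched, so an unmatched motif, the CArG box in Fos included, may lie farther upstream.

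**Figure D1:**
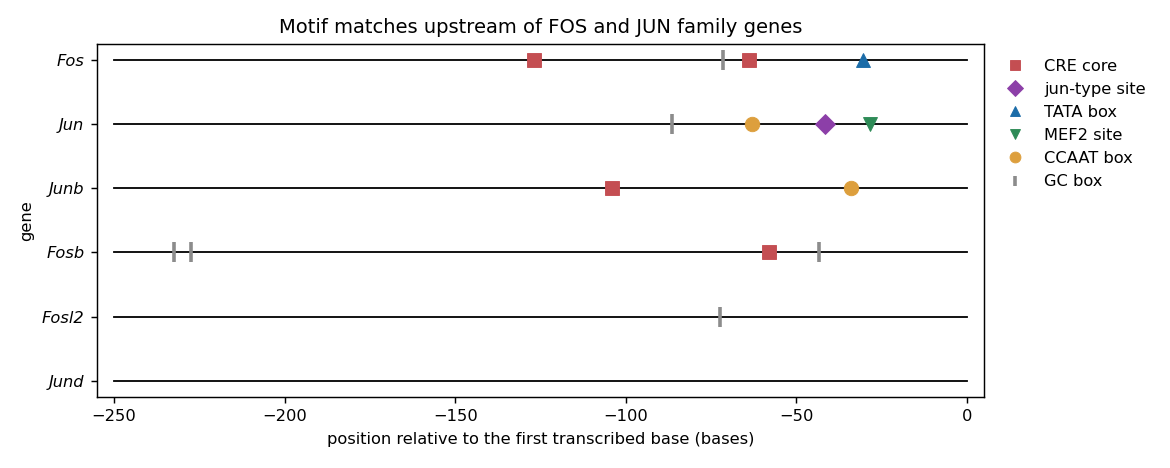
Positions of motif matches in the 250 bases upstream of 6 FOS and JUN family genes, in bases from the first transcribed base on the x axis, with 1 line per gene and 1 symbol per match. The CRE core is marked in Fos, Fosb and Junb, TGACATCA and the MEF2 site in Jun, and no motif in Jund.

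The deposited values were taken from their range to be log2 signals, and the array medians lay close together, between 5.21 and 5.25. The median of all values, 5.23, served as a floor: lower values were raised to it, a ratio with 1 array under it is a lower bound, and none is given where both arrays lay under it. A gene was said to rise or fall when its log2 ratio reached 1, which is 2-fold. The only measurable error was how far the ratios of 2 probe sets of a gene disagreed. It is given per probe set, as the SD of the difference between the 2 ratios divided by the square root of 2. That SD, in log2 units, was 0.11 at 0.5 h (n = 5091 genes), 0.16 at 1 h (n = 5072) and 0.14 at 3 h (n = 5105), and it leaves out differences between cultures. It is the spread between probe sets named below, and the SD of the difference itself is larger. Of 11 stromal marker genes, 8 lay above the floor, with Col1a2 at 14.27 and Cxcl12 at 13.36 on the control array, while Thy1, Fap and Dcn lay under it on every array. Of the markers of other cell types, 3 of 9 haematopoietic, 1 of 5 endothelial and 1 of 4 epithelial genes lay above the floor. These were Lyz2, with log2 ratios of 0.30, 0.38 and 0.47 at the 3 times, Csf1r, Cd3e, Kdr and Epcam, while Ptprc, the defining leukocyte gene, lay under the floor on every array. Relative to the control array, 3 probe sets for 18S ribosomal RNA had median log2 ratios of 0.96, 1.91 and 1.79 at 0.5, 1 and 3 h, and 12 for spiked poly-A controls −0.04, 0.32 and 0.37. The difference between 5′ and 3′ control probe sets also shifted from the control array. At 0.5, 1 and 3 h the shift was −0.06, −0.16 and −0.16 for Gapdh and −0.03, −0.13 and −0.09 for Actb. The part of all these shifts in the values below was not tested.

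**Figure D2:**
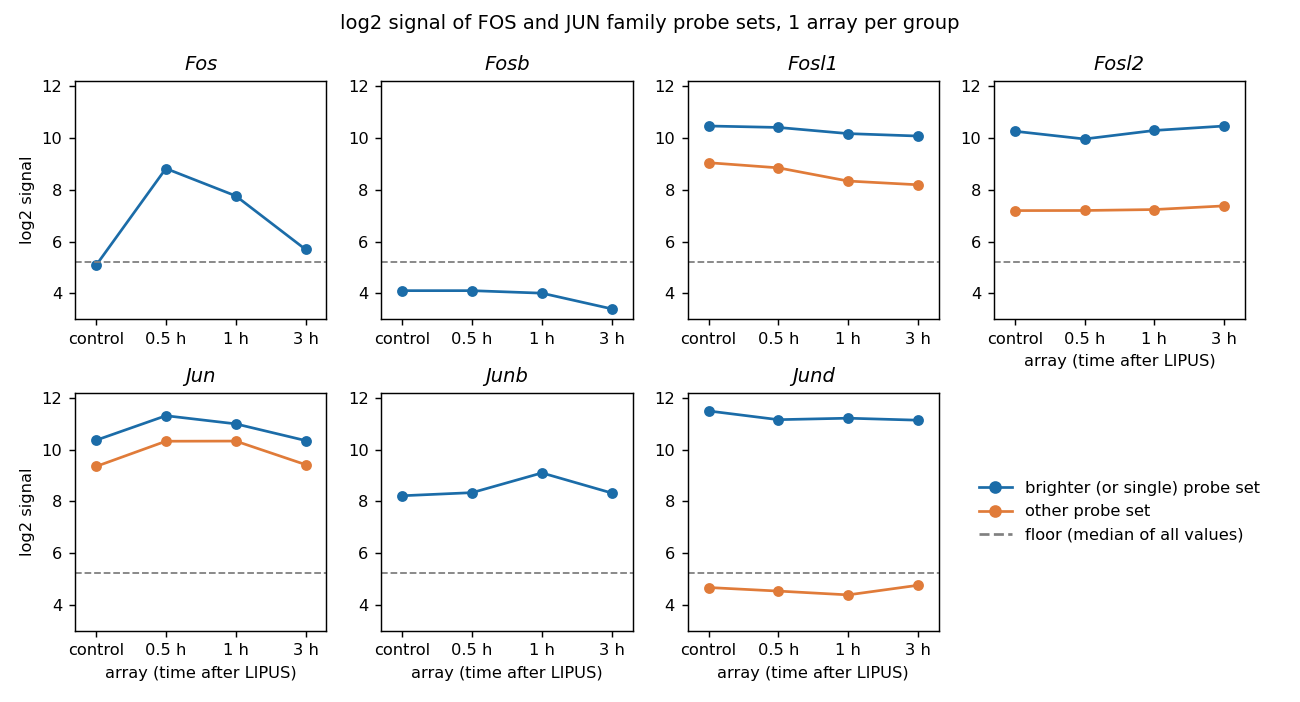
log2 signal (y axis) of the 11 FOS and JUN family probe sets on the control array and the arrays at 0.5, 1 and 3 h after LIPUS (x axis), with 1 point per array, lines joining the points of a probe set and the floor dashed. Fos crosses the floor and peaks at 8.82 at 0.5 h, both Jun probe sets are raised at 0.5 and 1 h, Junb peaks at 1 h, and Fosb stays under the floor.

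Fos, the founding member and an inducible partner of JUN, had the widest course of the family. The log2 values of its single probe set were 5.08 (control), 8.82 (0.5 h), 7.76 (1 h) and 5.70 (3 h). The control array alone lay under the floor, and the signal was highest on the earliest array after LIPUS. Fos therefore rose at least 12.1-fold at 0.5 h and at least 5.80-fold at 1 h, and at 3 h it stood at least 1.38-fold above the control, short of the rule. With bounds taken as values, for Fos and for other genes alike, its ratio was the second highest of 11574 measured genes at 0.5 h and the fourth of 11497 at 1 h. The decline needs no bound, since the 3 later arrays all lay above the floor. Fos fell by 1.06 on the log2 scale from 0.5 h to 1 h and fell by 2.07 from 1 h to 3 h, so that 48.1% of its signal at 0.5 h was left at 1 h and 11.5% at 3 h. The step from 0.5 h to 1 h was the lowest ratio of all 11507 measured genes. With no floor the ratios to the control were 3.74, 2.68 and 0.62 on the log2 scale. With the floor at the 75th percentile, the bound was 1.10 at 0.5 h and 0.05 at 1 h, which ends the call at 1 h, and the fall from 1 h to 3 h then misses the rule as well.

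Jun, the main partner of FOS and the best transcriptional activator of the JUN proteins, had the same direction in both of its probe sets. The brighter one had log2 signals of 10.36 (control), 11.31 (0.5 h), 10.99 (1 h) and 10.35 (3 h). The other had 9.35, 10.32, 10.33 and 9.42 in the same order. In both, the arrays at 0.5 h and 1 h lay above the control and the array at 3 h did not differ from it by more than the spread between probe sets. At 0.5 h the ratio was 1.93-fold by the brighter probe set and 1.96-fold by the other, both just short of the rule, and it ranked 18th of 11574 genes. At 1 h the probe sets differed, at 1.55-fold and 1.97-fold. By the brighter one the signal at 1 h was 80.4% of that at 0.5 h, and by the other it was 100.4%, so whether Jun had begun to decline by 1 h depends on the probe set. By 3 h both had lost much of the signal, with 51.4% and 53.5% of the 0.5 h value left.

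Junb, which encodes a JUN protein that activates more weakly and can restrain JUN, reached its highest value later. Its single probe set read, in log2 units, 8.22 (control), 8.34 (0.5 h), 9.10 (1 h) and 8.32 (3 h). Only the array at 1 h stood apart, and the other 3 lay within 0.12 of one another. The log2 ratio to the control was 0.12 at 0.5 h, close to the probe-set SD, then 0.88 at 1 h, which is 1.84-fold, and 0.11 at 3 h. From 0.5 h to 1 h Junb had a log2 ratio of 0.76, the 16th highest of 11507 genes, while Fos fell and Jun was at −0.31 by its brighter probe set and 0.01 by the other. From 1 h to 3 h it was at −0.78, the 22nd lowest of 11494 genes, and Jun was at −0.64 or −0.91 by its 2 probe sets.

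Jund, the constitutive JUN gene, whose protein is often held to slow growth, was lower than the control on every LIPUS array by its measured probe set. Its log2 values were 11.49 (control), 11.16 (0.5 h), 11.21 (1 h) and 11.14 (3 h). The 3 LIPUS arrays lay within 0.08 of one another, so the difference sits between them and the 1 control array. The log2 ratios were −0.34, −0.28 and −0.36, each larger than the probe-set SD and all short of the rule. The other Jund probe set lay under the floor on all 4 arrays, between 4.39 and 4.76, so the shift rests on 1 probe set.

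Fosl1, which encodes FRA1, a FOS relative without the activation domain and often itself a target of AP-1, declined over the series in both probe sets without passing the rule. The brighter one had log2 signals of 10.46 (control), 10.41 (0.5 h), 10.17 (1 h) and 10.07 (3 h), and the other had 9.04, 8.85, 8.34 and 8.19. The order of the arrays was the same in both, from the control as the highest to 3 h as the lowest. The sizes differed. At 3 h the log2 ratio was −0.39 by the brighter probe set and −0.85 by the other, which is 1.31-fold and 1.81-fold lower than the control. At 1 h the ratios were −0.29 and −0.71, and at 0.5 h −0.06 and −0.20. The mean over both probe sets was −0.62 at 3 h.

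Fosl2, which encodes FRA2, the FOS relative with a known part in osteoblasts and matrix production, stayed within 1.3-fold of the control on every array. Its brighter probe set had log2 signals of 10.26 (control), 9.96 (0.5 h), 10.29 (1 h) and 10.46 (3 h), and the other had 7.19, 7.20, 7.24 and 7.38. The dip at 0.5 h, a log2 ratio of −0.30, was seen in the brighter probe set, and the other was at 0.00. At 3 h both lay above the control, at 0.20 and 0.18, slightly more than the probe-set SD. Fosb, the close relative of Fos with an activation domain of its own, lay under the floor on all 4 arrays, at 4.10 (control), 4.10 (0.5 h), 4.00 (1 h) and 3.40 (3 h). No ratio is given for it, and its 1 probe set was not higher on any LIPUS array than on the control.

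**Figure D3:**
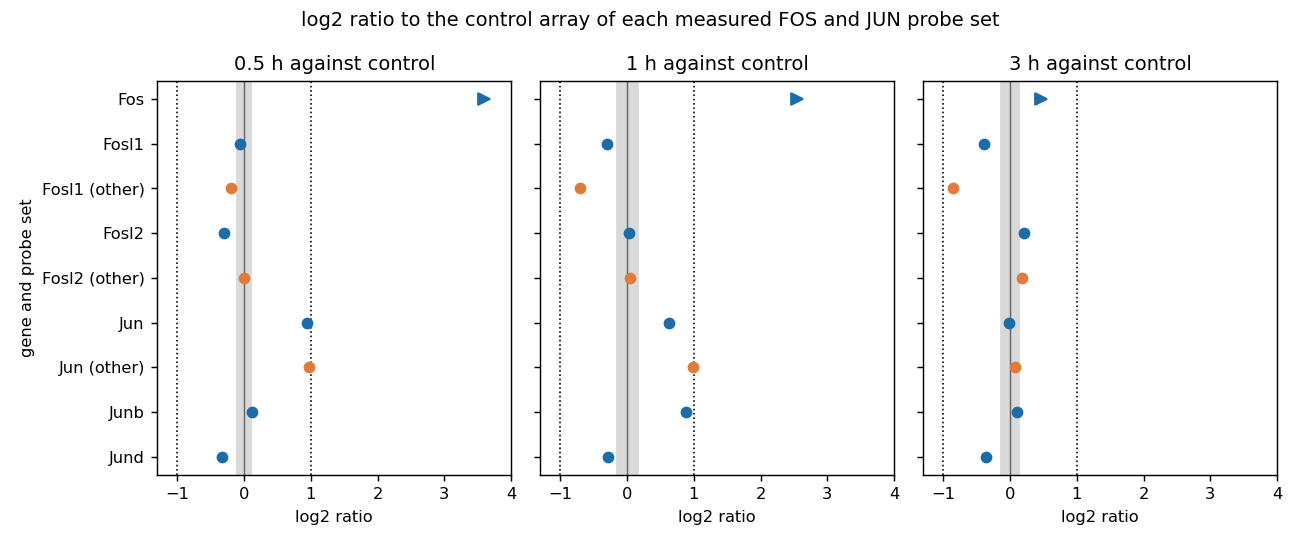
log2 ratio to the control array (x axis) at 0.5, 1 and 3 h for the 9 FOS and JUN family probe sets above the floor on at least 1 array, with brighter or single probe sets in blue and others in orange. Triangles are lower bounds, the grey band is the SD per probe set defined in the text, and the dotted lines mark 2-fold. Fos is the point past 2-fold, at 0.5 and 1 h, and both Jun probe sets lie just inside the line at 0.5 h.

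Counted by gene, 6 of the 7 members were measured in each comparison. At 0.5 h, 1 rose and 5 did not pass the rule, where 0.138% of all 11574 genes rose. At 1 h, 1 rose and 5 did not pass, where 0.191% of 11497 genes rose. At 3 h, 0 members were past 2-fold, where 0.0691% of 11574 genes rose, and at none of the times did a member or any other gene fall 2-fold against the control (0.0%). From 0.5 h to 1 h, 1 member fell, where 0.00869% of all genes did, and 0 rose, where 0.0348% did, and from 1 h to 3 h, 1 fell, where 0.087% did. In every case the member was Fos. At a 1.5-fold threshold the higher members were Fos and Jun at 0.5 h, where 0.372% of all genes were that much higher, and Fos, Jun and Junb at 1 h, where 0.948% were. From 0.5 h to 1 h, Junb was that much higher, as were 0.348% of all genes, and Fos that much lower, as were 0.104%. At the same threshold Fos, Jun and Junb were lower at 3 h than at 1 h, where 0.452% of all genes were. Against the control, 0 members were 1.5-fold lower at any time by the brightest probe set. The share of all genes that were is not given. By its other probe set, Fosl1 was 1.63-fold lower than the control at 1 h and 1.81-fold lower at 3 h. The median log2 ratio of the members was 0.03 at 0.5 h, 0.33 at 1 h and 0.05 at 3 h, beside 0.01, 0.02 and 0.01 for all measured genes. The comparisons with the control share that 1 array, so their values are not independent. Fewer cells making a transcript and less transcript per cell cannot be told apart in RNA from whole cultures.

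**Figure D4:**
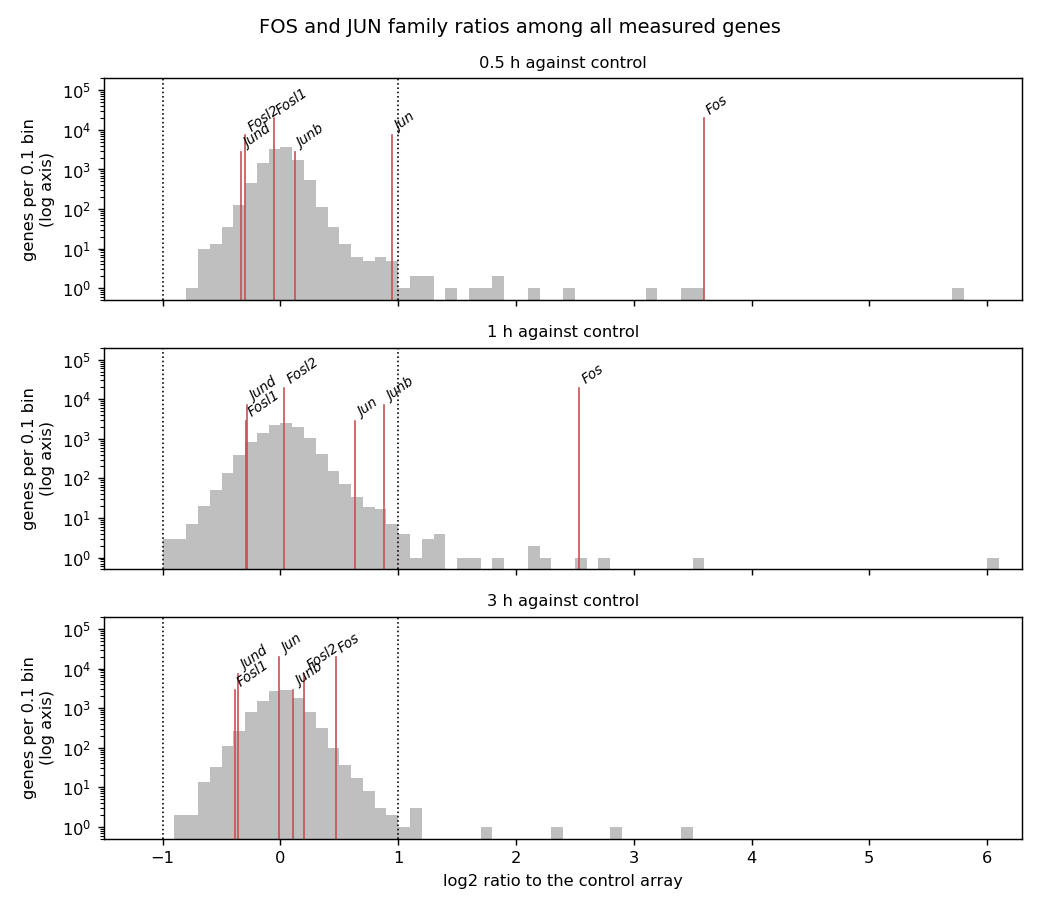
Number of measured genes per 0.1 bin of log2 ratio to the control array (grey bars, log axis) at 0.5, 1 and 3 h, with the 6 measured FOS and JUN family genes as red lines and 2-fold as dotted lines. Fos lies at 3.59, 2.54 and 0.47 at 0.5, 1 and 3 h, each a lower bound. At 3 h the lines of all 6 genes are drawn between −0.39 and 0.47.

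The genes whose course over the 4 arrays was most like that of Fos were sought among 11679 genes outside the family, by the root mean square (RMS) difference between log2 values raised to the floor and centred per gene. Egr1, a zinc finger immediate-early factor, was nearest, at 0.17, with log2 signals of 8.68, 11.83, 10.83 and 8.84 in the control and at 0.5, 1 and 3 h. Like Fos it was highest at 0.5 h, and at 3 h its log2 ratio to the control was 0.16, where that of Fos was at least 0.47. The next were much farther: the co-chaperone gene Dnajb1 at 0.50, with its other probe set at 0.86, the synaptic immediate-early gene Arc at 0.65, Rsrp1 at 0.65 and the stress-induced factor gene Atf3 at 0.66. Dnajb1 and Atf3 were highest at 1 h, unlike Fos. Within the family the RMS difference from Fos was 1.06 for Jun and more than that for the other measured members. Fosb, under the floor on every array, was left out.

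For Jun the nearest genes were Clk4, a kinase of splicing factors, at 0.05, the zinc finger factor gene Egr2 at 0.09, Errfi1, an inhibitor of EGF receptor signalling, at 0.10, the splicing kinase gene Clk1 at 0.12 and Ccdc117 at 0.13. Clk4 had log2 signals of 6.87, 7.81, 7.38 and 6.85, and Egr2 had 6.48, 7.37, 6.88 and 6.31. The second probe set of Jun lay at 0.14 from the first, farther than all 5 genes, so the order among them is within the disagreement of the probe sets of Jun. Errfi1 has a second probe set that lay at 0.20. Over 4 arrays, 3 of which share a treatment, such likeness is a description.

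Among the bZIP relatives that pair with or act beside FOS and JUN, 12 of 14 genes were measured. At 0.5 h and at 1 h, 1 of them rose, where 0.138% and 0.191% of all genes did, and 11 did not pass the rule. At 3 h 0 passed it, where 0.0691% of all genes rose. The 1 was Atf3, a stress-induced repressor that can pair with JUN, which had log2 signals of 6.45 (control), 8.31 (0.5 h), 8.71 (1 h) and 6.03 (3 h). It rose 3.64-fold and 4.79-fold at the first times, and its value at 3 h lay below the control, at a log2 ratio of −0.42. It had its maximum at 1 h, where Fos had already fallen. Maff, a small MAF protein gene, had log2 ratios of 0.14, 0.31 and −0.34, and Maf had 0.10, 0.37 and 0.34, with its other probe sets between −0.03 and 0.27 at 0.5 h, −0.15 and 0.64 at 1 h, and −0.05 and 0.58 at 3 h. Batf, an AP-1 factor of lymphocytes, was at −0.31 at 1 h, and Atf7 was at −0.20 at 0.5 h, with its second probe set at −0.08. The list medians were 0.01, 0.06 and −0.04.

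Of 27 genes for kinases and transcription factors that act on FOS and JUN genes or proteins, 19 were measured. None of the 19 passed 2-fold in either direction at any time. Of all measured genes, 0.138%, 0.191% and 0.0691% rose at 0.5, 1 and 3 h, and 0.0% fell. The medians of the 19 were −0.01, 0.02 and −0.05. Their ratios ran from −0.22 to 0.26 at 0.5 h, from −0.35 to 0.34 at 1 h and from −0.45 to 0.24 at 3 h. These proteins are mostly switched by phosphorylation, which an mRNA array does not read. Map2k3, an activating kinase of p38, had the largest departure, at −0.04, −0.35 and −0.45, and its second probe set gave −0.06, −0.41 and −0.46. Srf, the factor that binds the serum response element of Fos, was at −0.00, −0.17 and −0.29, with its second probe set at −0.38 at 3 h. Mapk8, which encodes a JUN N-terminal kinase, was at 0.26, 0.27 and 0.12, and its other probe sets ran from −0.16 to 0.12 at 0.5 h, from 0.09 to 0.49 at 1 h and from 0.17 to 0.41 at 3 h. Rps6ka3, which encodes a kinase downstream of ERK, was at 0.34 at 1 h by its brightest probe set and between −0.21 and 0.05 by the others.

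Of 11 genes for the turnover of FOS and JUN mRNA and protein, 10 were measured and none passed the rule. The share of all genes that rose was 0.138%, 0.191% and 0.0691% at 0.5, 1 and 3 h. The medians of the list were 0.05, 0.14 and 0.11. The decay factors of the TTP family, which bind AU-rich elements such as the one in Fos mRNA, differed from one another. Zfp36l1 had log2 signals of 8.36, 9.19, 9.31 and 8.78, giving ratios of 0.83, 0.95 and 0.42, with its second probe set at 0.56, 0.76 and 0.09. Zfp36l1 was thus highest at 1 h and close to 2-fold there, but it was already raised at 0.5 h, where Junb was at 0.12. From 0.5 h to 1 h its log2 ratio was 0.11, and that of Junb was 0.76. Zfp36, which encodes TTP itself, was at −0.04, 0.38 and 0.38. Zfp36l2 was at −0.56, −0.21 and 0.12, and its other probe sets ran from −0.55 to −0.08 at 0.5 h, from −0.87 to −0.22 at 1 h and from −0.47 to 0.04 at 3 h. Fbxw7, part of a ubiquitin ligase that targets JUN, was at −0.05, 0.31 and 0.21, but its second probe set was at −0.12, −0.15 and −0.11.

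Of 23 genes described as AP-1 targets, 14 were measured. Of these, 1 rose and 13 did not pass the rule at 0.5 h, where 0.138% of all genes rose. At 1 h and at 3 h 0 of 14 passed it, where 0.191% and 0.0691% of all genes rose. The medians were −0.05, −0.01 and −0.09. Ptgs2, the inducible prostaglandin synthase gene, was the 1, with log2 signals of 8.99, 10.18, 9.72 and 8.78. It rose 2.29-fold at 0.5 h and was highest there, as Fos was, and its second probe set gave 1.02, 0.66 and −0.31. Ccl2, a monocyte chemokine gene, was at 0.59 at both early times and −0.06 at 3 h. Plau, the urokinase gene, was at 0.46, 0.45 and 0.39, but its second probe set was at 0.11, 0.01 and −0.03. Mt2, a metallothionein gene, was at 0.22, 0.20 and 0.44, and Hbegf, an EGF-family ligand gene, at −0.21, −0.04 and −0.45, with its second probe set at 0.09, 0.11 and −0.33. The collagenase and stromelysin genes Mmp13, Mmp3 and Mmp10, and Il6, lay under the floor on all 4 arrays.

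**Figure D5:**
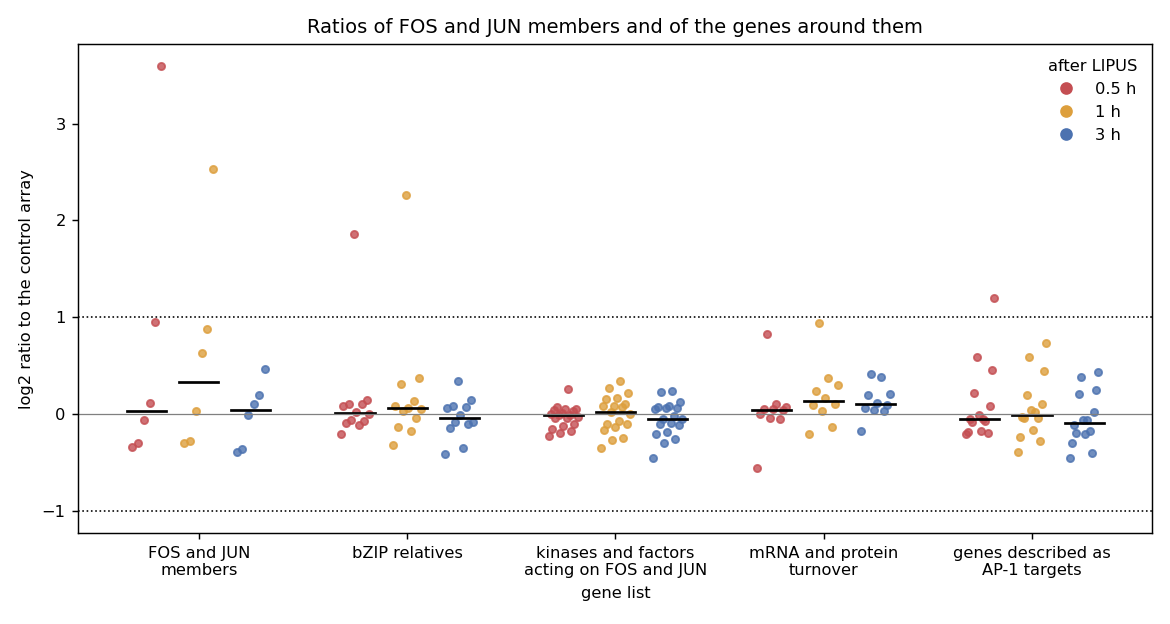
log2 ratio to the control array (y axis) of each measured gene at 0.5, 1 and 3 h, for the FOS and JUN members and the 4 gene lists around them, with 1 point per gene, black bars at the list medians and dotted lines at 2-fold. Ratios of Fos are lower bounds; the points past 2-fold are Fos and Atf3 at 0.5 and 1 h and Ptgs2 at 0.5 h.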

How the data were processed

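Labelled cRNA was made from 500 ng of total RNA with a kit primed from the poly-A tail, per the labels' protocols. The values the authors deposited, for 45101 probe sets on each array, were taken from their range to be log2 signals. The log base, summary method, scaling and software are not given in the sources used here, so any compression of ratios by that method carries over.

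Symbols came from the platform annotation, which gave 34958 probe sets 1 symbol, and were updated through the Entrez number for 34754. Each gene was represented by its probe set with the highest mean. Values were raised to the median of all values, and each LIPUS array was set against the control and against the preceding array, with 2-fold as the rule of size. With 1 array per group no test was possible, and depth has no meaning for arrays, whose number limits the precision.

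The members, gene lists and naming rule were chosen with earlier results of these data known. All members were named. From each list other than markers, every gene past 2-fold and the 4 next largest measured ratios were named, as were the 5 genes nearest to Fos and to Jun. Marker genes named and the targets listed as under the floor were chosen after their values were seen. List genes without a probe set of 1 symbol were not analysed here. Python 3.11.15, numpy 2.4.6, pandas 2.3.3, matplotlib 3.10.9, R 4.3.3 and limma 3.58.1 were used. Alternatives covered the floor, scaling, probe sets, fold threshold and reference.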

Additional observations from a re-analysis of the deposited data

Results flagged for a closer look

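For 6 genes, among the family members, the list genes named by the rule other than markers and the genes nearest to Fos and Jun, the log2 ratio to the control went one way at one time and the other way at another, by more than the spread between probe sets each time. Fosl2 was at −0.30 at 0.5 h and 0.20 at 3 h by its brighter probe set, a difference of 0.50. Its other probe set was at 0.00 and 0.18, so the change of direction rests on 1 probe set. Atf3 was at 2.26 at 1 h and −0.42 at 3 h, a difference of 2.68. Maff was at 0.31 at 1 h and −0.34 at 3 h, a difference of 0.66. Ptgs2 was at 1.20 at 0.5 h and −0.20 at 3 h, a difference of 1.40. Egr2 was at 0.89 at 0.5 h and −0.17 at 3 h, a difference of 1.06, and Errfi1 at 0.76 and −0.27, a difference of 1.03. Egr2 and Errfi1 each have a second probe set, whose ratios are not given here. The share of all genes that change direction in this way is not given either, so the count of 6 cannot be called high or low. With 1 array per time, the differences above were not tested.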

How the results depend on the processing

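The number of members past 2-fold was recomputed under each alternative. With both arrays required above the floor it was 0 at 0.5 h and 0 at 1 h, because the control value of Fos lay under the floor. With the floor at the 75th percentile it was 0 at 1 h and 0 from 1 h to 3 h. With a 1.5-fold threshold it was 2 at 0.5 h, 3 at 1 h, 2 from 0.5 h to 1 h and 3 from 1 h to 3 h, and with a 3-fold threshold 0 from 0.5 h to 1 h. Against the mean of the other 3 arrays, which include its own peak, Fos was lower at 3 h, at −1.53 on the log2 scale, a count of 1. The other counts did not move by more than 1.5 times. Of 161 recomputed log2 ratios of members, 139 moved by less than the spread between probe sets and 22 by more. The sign changed in 7, of which 4 came from using the mean of the other 3 arrays as the reference, and 2 of the 7 were of Fos or Jun, both at 3 h. Many of the 139 could not move. The other floors left Fosl1, Fosl2, Jun, Junb and Jund untouched, since these lay above each of them. Leaving out probe sets named _x_at or _s_at kept the same probe set for every measured member. The mean over probe sets could not change Fos, Junb or Jund, each with 1 probe set above the floor. Median centring, quantile normalization and cyclic loess changed no count. No paired analysis was possible because each group was 1 array. The floor limits Fos in the control and Fosb on every array.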
